A study of Homo sapiens with 6 samples.

Results

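The genes described here are 39 genes of the lysosome and of autophagy, taken by symbol from a list that covers lysosomal hydrolases and their activators, lysosomal membrane and sterol export proteins, the vacuolar proton pump, autophagy proteins, regulators of the lysosomal gene program and LITAF. All 39 were found among the 58288 genes of the count table, and 38 of them were among the 14415 genes with enough reads to be tested. The list was not chosen from any measured value by rule, although earlier results of these data were known when it was proposed.

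The data are mRNA profiles of T24, a human bladder cancer cell line. T24 cells were transiently transfected with a control siRNA (NC), with si-circ235-1 or with si-circ235-2, and 2 libraries labelled as biological replicates were sequenced for each of the 3 groups. Both siRNAs were made against the site where exons of CCNY are joined back to front into circ235, a circular RNA, and the comparison asks which mRNAs change when circ235 is knocked down. The NC cells carried the control siRNA and no siRNA against circ235, the libraries came from 1 cell line, and circ235 itself is not measured because only polyadenylated RNA was kept. The sources used here do not give the dose of siRNA or the time of harvest.

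Lysosomes break down proteins, lipids and sugars with hydrolases that work at acid pH, and the V-ATPase, a proton pump in the membrane, makes the lumen acid. LAMP1, LAMP2, SCARB2 and CD63 are abundant proteins of the lysosomal membrane, and NPC1 and NPC2 pass cholesterol from the lumen to the rest of the cell. Autophagy delivers cytoplasm to the lysosome in vesicles marked by lipid-bound MAP1LC3B and GABARAPL1, and SQSTM1 (p62) links ubiquitinated cargo to them. TFEB and TFE3 are transcription factors that mTORC1 holds in the cytoplasm in fed cells and that turn on many lysosomal genes through promoter elements of the CLEAR type, and MCOLN1 is the lysosomal calcium channel that helps release TFEB. LITAF is a small zinc-binding protein on the cytoplasmic face of late endosomes and lysosomes.

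The libraries held 15373992 to 19912893 counts, of which the 39 genes took 0.637% to 0.954%. Levels below are CPM, the counts of a gene per 1000000 counts in the tested genes of its library, after scaling with TMM factors, which ran from 0.890 to 1.19 over the 6 libraries. The keratins KRT7, KRT8 and KRT18 lay between 619 and 2307 CPM, and VIM and CD44 between 499 and 1499 CPM. CDH2, read with VIM and CD44 as a mesenchymal marker, was much lower, at 3.91 to 7.85 CPM. Other urothelial and epithelial markers were low or absent, with KRT5, KRT19, CDH1, GATA3, UPK1A, UPK2 and UPK3A at or under 1.12 CPM, EPCAM at 1.28 to 2.93 CPM and PPARG at 22.6 to 51.1 CPM. Markers of blood cells, endothelium and liver were at or under 0.394 CPM in every library. The fibroblast marker COL1A1 was at 0.489 to 1.47 CPM, and the fibroblast marker DCN at or under 0.0611 CPM. CCNY, the host gene of circ235, lay between 55.5 and 78.1 CPM and was not called in any comparison.

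The sequences of 4 promoters are shown first, because CLEAR-type elements are the best known feature that lysosomal genes share, and because 3 of these genes were called lower with si-circ235-2 than with si-circ235-1. The search took the word TCACGTG on both strands (read as CACGTGA on the other strand), in the 300 bases from 250 before to 50 after each start site in RefSeq (GRCh38.p14). The set of windows used here covered 30 of the 39 genes. It held none for ASAH1, ATP6V1A, ATP6V1B2, ATP6V1H, CTSB, HEXA, LAMP2, MANBA and PSAP, so their promoters were not searched. The word stood in 7 of the 30 genes (23.3%), namely NEU1, CTSA, CTSD, GAA, LAMP1, ATP6V0D1 and MCOLN1. Counted by gene in the same way, it stood in 7.26% of 10082 tested genes with a window and 4.49% of all 27305 genes with one. Counted by window, it stood in 3.71% of all 35116 windows. The shorter word CACGTG, which every TCACGTG contains, stood in 8 of the 30 (CD63 in addition, 26.7%) and in 12.6% of the tested genes. The 4 runs below read 5′ to 3′ on the strand of the gene, from 200 bases before the start site to 10 after it, with TCACGTG and its reverse in capitals. They lie at chr16:67481148-67481357 (minus strand, ATP6V0D1), chr11:1763918-1764127 (minus strand, CTSD), chr19:7522424-7522633 (plus strand, MCOLN1) and chr13:113297039-113297248 (plus strand, LAMP1).
ATP6V0D1: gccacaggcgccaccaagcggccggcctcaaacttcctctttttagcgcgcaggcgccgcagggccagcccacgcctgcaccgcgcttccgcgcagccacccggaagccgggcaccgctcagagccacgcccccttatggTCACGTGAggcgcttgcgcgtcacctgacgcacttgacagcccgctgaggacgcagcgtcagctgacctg
CTSD: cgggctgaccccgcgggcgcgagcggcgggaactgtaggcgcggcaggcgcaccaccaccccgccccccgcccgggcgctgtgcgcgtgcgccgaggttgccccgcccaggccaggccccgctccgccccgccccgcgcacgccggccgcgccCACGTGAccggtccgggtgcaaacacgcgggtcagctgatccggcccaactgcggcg
MCOLN1: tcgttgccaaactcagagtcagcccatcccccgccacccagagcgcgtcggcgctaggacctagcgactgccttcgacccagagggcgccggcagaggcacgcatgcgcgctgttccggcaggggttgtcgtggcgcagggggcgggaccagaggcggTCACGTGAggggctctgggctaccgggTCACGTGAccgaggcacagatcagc
LAMP1: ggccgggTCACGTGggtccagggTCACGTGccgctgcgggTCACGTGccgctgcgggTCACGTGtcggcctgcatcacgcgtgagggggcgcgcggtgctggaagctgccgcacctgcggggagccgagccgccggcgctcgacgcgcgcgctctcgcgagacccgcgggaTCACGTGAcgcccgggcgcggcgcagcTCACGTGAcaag

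ATP6V0D1 and CTSD held 1 place with the word, beginning 60 and 47 bases before the start site. MCOLN1 held 2, beginning 42 and 15 bases before it. LAMP1 held 6 places between 193 and 2 bases before its start. Of the 7 genes with the word, edgeR called none in si-circ235-1 against NC, 1 lower in si-circ235-2 against NC (CTSD) and 3 lower in si-circ235-2 against si-circ235-1 (ATP6V0D1, CTSD and MCOLN1). Over all genes tested, 5.88%, 31.4% and 39.7% were called in those comparisons, and 18.6% were called lower between the siRNAs. Of the 3, MCOLN1 missed the threshold without TMM factors (-0.36, adjusted p = 0.216). The median log2 fold changes of the 7 genes were 0.30, -0.07 and -0.15. For the 22 tested genes whose windows lack the word, the medians were 0.20, 0.27 and -0.24, with 4 called higher and 1 lower, 8 higher and 2 lower, and 7 higher and 5 lower. A word in a window is a description of the sequence and does not show that a factor bound it.

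Under si-circ235-1, 6 of the 38 tested genes rose against NC (PPT1, SCARB2, ASAH1, CTSL, MAP1LC3B and LAMP2), 1 fell (LITAF) and 31 did not pass the test, which was edgeR's quasi-likelihood test at a Benjamini-Hochberg adjusted p under 0.05. That is 18.4% of the genes called, against a background of 5.88% of all genes tested (2.24% higher and 3.64% lower). Their median log2 fold change was 0.26, with 28 of 38 above 0, and the median over all tested genes was -0.03. Without TMM factors the split was 3 higher and 1 lower. Leaving out any 1 library of NC or si-circ235-1 gave fewer genes called higher over the whole table than the fit of all 6. In each such fit all 6 rises missed the threshold, with log2 fold changes from 0.58 to 1.16. LITAF missed it only without si-circ235-1 replicate 2 (log2 fold change -1.36, adjusted p = 0.145), where edgeR called no gene of the whole table (2110 at an unadjusted p under 0.05).

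Under si-circ235-2, 10 of the 38 rose against NC (PPT1, GLB1, SCARB2, ATP6V1B2, TPP1, MAP1LC3B, WIPI1, NPC1, TFE3 and LAMP2), 3 fell (CTSD, SMPD1 and NPC2) and 25 did not pass the test. The share called, 34.2%, stood beside a background of 31.4% (15.7% higher and 15.7% lower), so the genes were called about as often as genes at large. The median log2 fold change was 0.30, with 24 of 38 above 0, against -0.00378 over all tested genes. Leaving out NC replicate 1 kept 3 of the 10 rises (PPT1, TPP1 and NPC1) and none of the 3 falls, and over the whole table edgeR then called 432 genes higher and 337 lower in place of 2270 and 2260.

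Between the siRNAs, 8 genes were higher under si-circ235-2 (GLB1, SQSTM1, TPP1, HEXA, LITAF, WIPI1, NPC1 and TFE3), 10 were lower (GUSB, ASAH1, ATP6V1H, CTSL, CTSD, SMPD1, CD63, NPC2, ATP6V0D1 and MCOLN1) and 20 did not pass the test. The 47.4% called stood beside a background of 39.7% (21.1% higher and 18.6% lower), and the median log2 fold change was -0.01. The split depended on the scaling, with 12 higher and 4 lower without TMM factors and 7 higher and 14 lower after removal of a trend over gene length and GC content. Over all genes these fits called 4534 higher and 1496 lower, and 2469 higher and 3343 lower. The comparisons of each siRNA with NC share the NC libraries. PPT1, SCARB2, MAP1LC3B and LAMP2 passed as higher in both, where 0.784% of all tested genes did, and no gene of the list passed as lower in both, where 0.638% did. The heat map sets the 38 genes side by side.

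**Figure D1:**
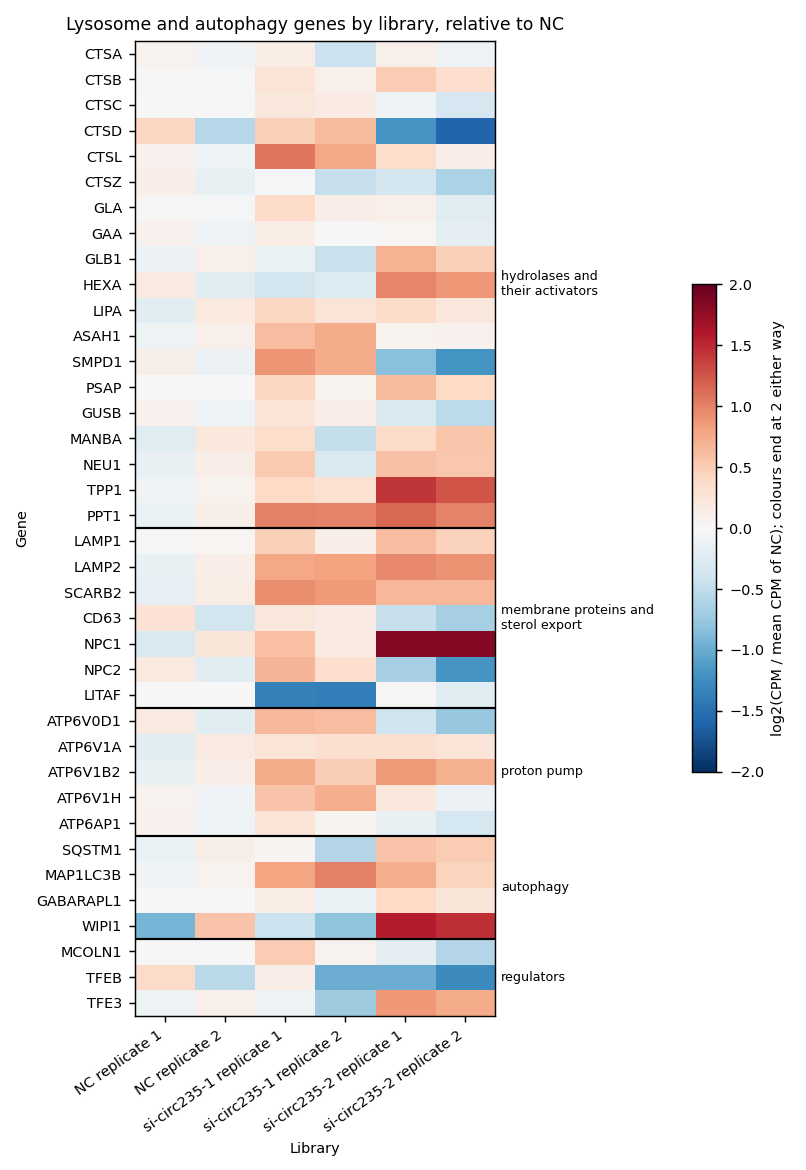
Level of the 38 tested genes (rows, grouped by role) in each of the 6 libraries (columns), as the log2 ratio of CPM to the mean CPM of the 2 NC libraries, with red above and blue below NC. PPT1, LAMP2 and SCARB2 are red in the 4 knockdown libraries, LITAF is blue in the si-circ235-1 libraries, and NPC1, TPP1 and WIPI1 are red and CTSD, SMPD1 and NPC2 blue in the si-circ235-2 libraries.

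Among the 19 hydrolases and activators, 3 rose and none fell under si-circ235-1 (none also at an unadjusted p under 0.05 and by DESeq2), and 3 rose and 2 fell under si-circ235-2. The shares called were 15.8% and 26.3%, beside 5.88% and 31.4% of all tested genes. PPT1 (chr1:40071461-40097727), a thioesterase that strips fatty acids from proteins, stood at 92.4 and 110 CPM in the NC libraries, 203 and 200 CPM under si-circ235-1 and 224 and 200 CPM under si-circ235-2. Every knockdown library lay above both NC libraries. The log2 fold change against NC was 1.00 ± 0.18 (standard error, adjusted p = 0.0157) for si-circ235-1 and 1.07 ± 0.18 (adjusted p = 0.00321) for si-circ235-2. PPT1 shares 1189 of its 5088 exon bases with CAP1 on the opposite strand, and reads there cannot be assigned to 1 gene because the libraries did not keep the strand.

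TPP1 (chr11:6612763-6619485), which clips tripeptides off protein ends, moved under si-circ235-2. Its levels were 120 and 132 CPM in NC, 166 and 154 CPM under si-circ235-1 and 338 and 302 CPM under si-circ235-2. The si-circ235-2 libraries stood apart from all others, with a log2 fold change of 1.35 ± 0.18 against NC (adjusted p = 0.00179) and 1.00 ± 0.18 against si-circ235-1 (adjusted p = 0.00202). Under si-circ235-1 it was 0.35 ± 0.18 (adjusted p = 0.251). GLB1, the lysosomal β-galactosidase, averaged 74.4 ± 7.82 CPM (SD, n = 2) in NC, 61.0 ± 9.21 under si-circ235-1 and 112 ± 11.9 under si-circ235-2, and rose under si-circ235-2 by 0.59 ± 0.19 on the log2 scale (adjusted p = 0.0375). The GLB1 rise was lost without any 1 of the NC or si-circ235-2 libraries (adjusted p 0.0547 to 0.231).

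CTSD and SMPD1 lay higher than NC in both si-circ235-1 libraries and lower in both si-circ235-2 libraries. CTSD (chr11:1752752-1764573), the main aspartic protease of the lysosome, read 448 and 227 CPM in NC, 471 and 524 CPM under si-circ235-1 and 150 and 113 CPM under si-circ235-2. The 2 NC libraries of CTSD lay far apart, and neither knockdown group overlapped them. CTSD shares 1304 of its 3126 exon bases with AC068580.4 on the same strand, and the effect of that on its count was not tested. The log2 fold change of CTSD against NC was 0.56 ± 0.29 (si-circ235-1, adjusted p = 0.256) and -1.36 ± 0.29 (si-circ235-2, adjusted p = 0.00711), and the latter was called. SMPD1 (chr11:6390431-6394998), the acid sphingomyelinase, read 16.99 and 14.48 CPM in NC, 28.9 and 26.2 CPM under si-circ235-1 and 8.85 and 6.84 CPM under si-circ235-2. The 3 groups of SMPD1 did not overlap. Against NC, SMPD1 had log2 fold changes of 0.81 ± 0.24 (si-circ235-1, adjusted p = 0.0665) and -1.01 ± 0.24 (si-circ235-2, adjusted p = 0.0109). Between the siRNAs the log2 difference was -1.92 ± 0.30 for CTSD (adjusted p = 0.00112) and -1.81 ± 0.24 for SMPD1 (adjusted p = 0.000683). Without NC replicate 1, the 2 falls against NC were -0.80 for CTSD (adjusted p = 0.0774) and -0.89 for SMPD1 (adjusted p = 0.0984).

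CTSL and ASAH1 rose under si-circ235-1, and both were higher there than under si-circ235-2. CTSL (chr9:87725519-87731393), a cysteine protease, read 82.0 and 73.1 CPM in NC, 162 and 132 CPM under si-circ235-1 and 98.5 and 84.7 CPM under si-circ235-2. The si-circ235-1 libraries were the highest, with a log2 fold change of 0.93 ± 0.19 against NC (adjusted p = 0.0228), beside 0.24 ± 0.19 for si-circ235-2 (adjusted p = 0.359). The difference between the siRNAs was -0.69 ± 0.19 (adjusted p = 0.0151), which missed the threshold without si-circ235-1 replicate 1 (-0.53, adjusted p = 0.0997) or si-circ235-2 replicate 2 (-0.58, adjusted p = 0.115), and without TMM factors (-0.35, adjusted p = 0.144). ASAH1, the acid ceramidase, averaged 86.3 ± 8.26 CPM in NC, 138 ± 9.42 under si-circ235-1 and 91.3 ± 0.351 under si-circ235-2, a rise of 0.68 ± 0.18 under si-circ235-1 (adjusted p = 0.0471). Its difference between the siRNAs, -0.60 ± 0.17 (adjusted p = 0.0195), was lost without si-circ235-1 replicate 2, si-circ235-2 replicate 1 or si-circ235-2 replicate 2 (adjusted p 0.0961 to 0.107), and without TMM factors (-0.26, adjusted p = 0.297). The rise of ASAH1 against NC was also lost without TMM factors (0.59, adjusted p = 0.0979).

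GUSB and HEXA differed between the siRNAs and were not called against NC. GUSB, the β-glucuronidase, averaged 149 ± 8.40 CPM under si-circ235-1 and 97.9 ± 10.6 under si-circ235-2, a log2 difference of -0.60 ± 0.18 (adjusted p = 0.0220) that was lost without si-circ235-1 replicate 1, si-circ235-1 replicate 2 or si-circ235-2 replicate 2 (adjusted p 0.0662 to 0.177), and without TMM factors (-0.27, adjusted p = 0.225). HEXA, a subunit of β-hexosaminidase, was counted at only 1.26 to 3.19 CPM over the 6 libraries, with a log2 difference of 1.23 ± 0.38 between the siRNAs (adjusted p = 0.0252) that was lost without any 1 of their 4 libraries (adjusted p 0.0671 to 0.123) and under DESeq2 (adjusted p = 0.0646). With the trend over length and GC content removed, the HEXA difference was 0.53 (adjusted p = 0.279), and also 0.53 with the replicate block added (adjusted p = 0.317). The other 10 hydrolases and activators (CTSA, CTSB, CTSC, CTSZ, GLA, GAA, LIPA, PSAP, MANBA and NEU1) were not called in any comparison. Among the hydrolases and activators, PSAP, the precursor of the saposins that present lipids to hydrolases, was the most abundant per length, at 374 CPM per kb of transcript in NC.

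**Figure D2:**
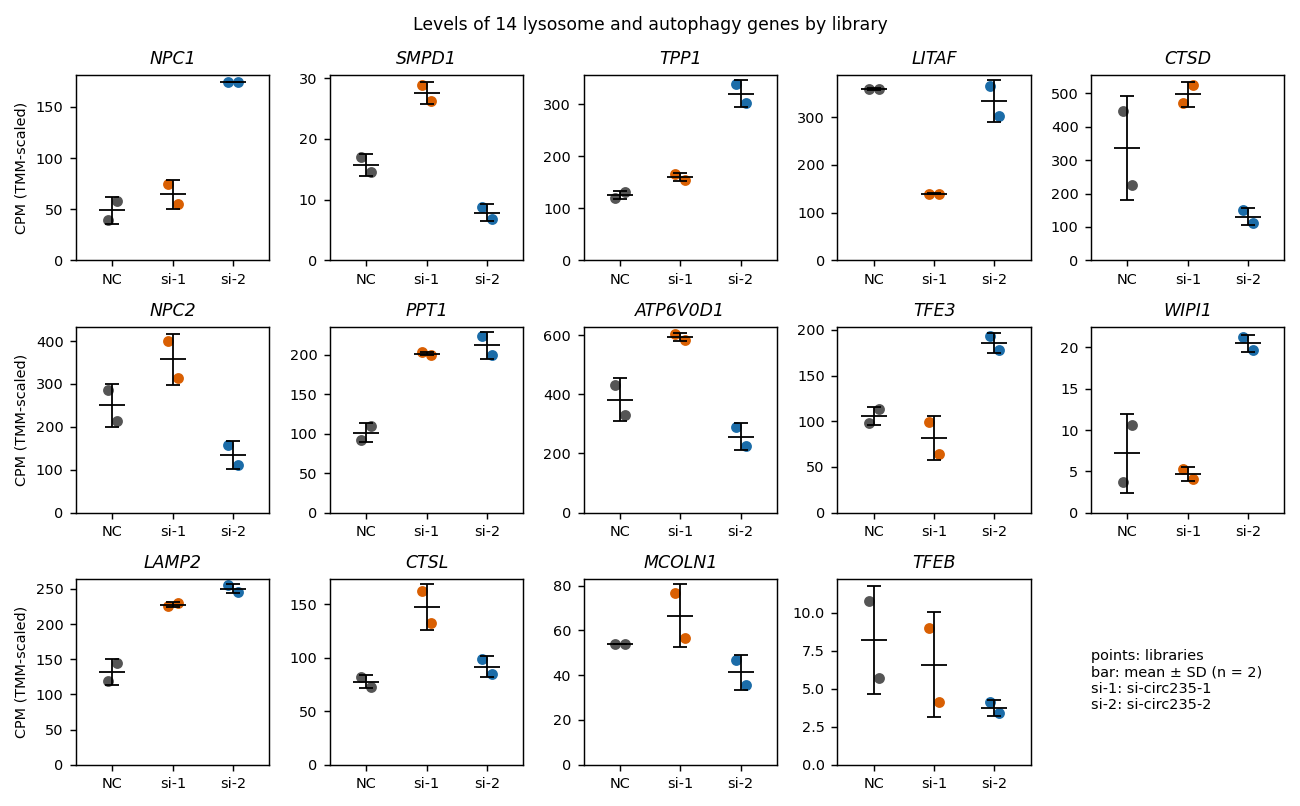
CPM (vertical axes, each from 0) of the 14 genes given library by library, in the 2 libraries of NC, si-circ235-1 (si-1) and si-circ235-2 (si-2), with the mean and SD of each group. The 2 si-circ235-2 points of NPC1 lie at 174 and 175 CPM, above all others, and the 2 si-circ235-1 points of LITAF lie at 140 and 139 CPM, below all others.

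Of the 7 membrane and sterol export genes, 2 rose and 1 fell under si-circ235-1, and 3 rose and 1 fell under si-circ235-2. That is 42.9% and 57.1% of a small group, beside 5.88% and 31.4% of all tested genes. NPC1 and NPC2, partners in cholesterol export, were called in opposite directions under si-circ235-2. NPC1 (chr18:23506184-23586898), the membrane protein of the pair, read 39.7 and 58.1 CPM in NC, 74.1 and 54.7 CPM under si-circ235-1 and 175 and 174 CPM under si-circ235-2. The si-circ235-2 libraries were about equal to each other and far above the rest, a rise of 1.83 ± 0.23 on the log2 scale against NC (adjusted p = 0.00179) and 1.44 ± 0.23 against si-circ235-1 (adjusted p = 0.00119). NPC2 (chr14:74476192-74494177), the soluble partner in the lumen, read 286 and 214 CPM in NC, 400 and 315 CPM under si-circ235-1 and 157 and 110 CPM under si-circ235-2. NPC2 was lowest in the si-circ235-2 libraries, a fall of -0.90 ± 0.24 against NC (adjusted p = 0.0166) and -1.42 ± 0.24 against si-circ235-1 (adjusted p = 0.00156). The fall of NPC2 against NC was lost without NC replicate 1 (-0.68, adjusted p = 0.148) or si-circ235-2 replicate 2 (-0.67, adjusted p = 0.109). Under si-circ235-1 neither passed, at 0.40 ± 0.23 for NPC1 (adjusted p = 0.303) and 0.52 ± 0.24 for NPC2 (adjusted p = 0.202).

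LAMP2 and SCARB2 rose under both siRNAs. LAMP2 (chrX:120427827-120469365), a membrane glycoprotein needed for autophagosomes to fuse with lysosomes and for chaperone-mediated autophagy, read 119 and 145 CPM in NC, 225 and 231 CPM under si-circ235-1 and 255 and 246 CPM under si-circ235-2. All 4 knockdown libraries lay above NC, with log2 fold changes of 0.79 ± 0.18 (si-circ235-1, adjusted p = 0.0349) and 0.93 ± 0.18 (si-circ235-2, adjusted p = 0.00512). SCARB2, the receptor that carries glucocerebrosidase to the lysosome, averaged 49.2 ± 7.20 CPM in NC, 91.0 ± 3.52 under si-circ235-1 and 77.8 ± 0.306 under si-circ235-2, rises of 0.89 ± 0.18 (adjusted p = 0.0236) and 0.66 ± 0.18 (adjusted p = 0.0201). Without NC replicate 1 the si-circ235-2 rise of LAMP2 was 0.79 (adjusted p = 0.0622), and that of SCARB2 was lost without NC replicate 1, si-circ235-2 replicate 1 or si-circ235-2 replicate 2 (adjusted p 0.0633 to 0.166). Without TMM factors, the si-circ235-1 rises of LAMP2 (0.70, adjusted p = 0.0650) and SCARB2 (0.79, adjusted p = 0.0560) were lost. LAMP1 was not called, at log2 fold changes of 0.32 ± 0.20 and 0.54 ± 0.20 against NC (adjusted p = 0.352 and 0.0611).

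LITAF (chr16:11547722-11636381) was the 1 gene of the list that fell under si-circ235-1. It read 360 and 358 CPM in NC, 140 and 139 CPM under si-circ235-1 and 365 and 303 CPM under si-circ235-2. The si-circ235-1 libraries stood well below the other 4, which overlapped. The log2 fold change was -1.37 ± 0.19 for si-circ235-1 (adjusted p = 0.00747) and -0.11 ± 0.19 for si-circ235-2 (adjusted p = 0.695), and the difference between the siRNAs was 1.26 ± 0.19 (adjusted p = 0.000992). The sign of the small si-circ235-2 value turned to 0.14 without TMM factors and to 0.02 without si-circ235-2 replicate 2. CD63, a tetraspanin of late endosomes and exosomes, averaged 559 ± 179 CPM in NC, 642 ± 19.8 under si-circ235-1 and 381 ± 38.5 under si-circ235-2, and only the difference between the siRNAs was called (-0.76 ± 0.24, adjusted p = 0.0283). The CD63 difference was lost without si-circ235-1 replicate 1, si-circ235-1 replicate 2 or si-circ235-2 replicate 2 (adjusted p 0.103 to 0.116), without TMM factors (-0.42, adjusted p = 0.0994) and with the replicate block and the trend removed (-0.47, adjusted p = 0.0544).

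**Figure D3:**
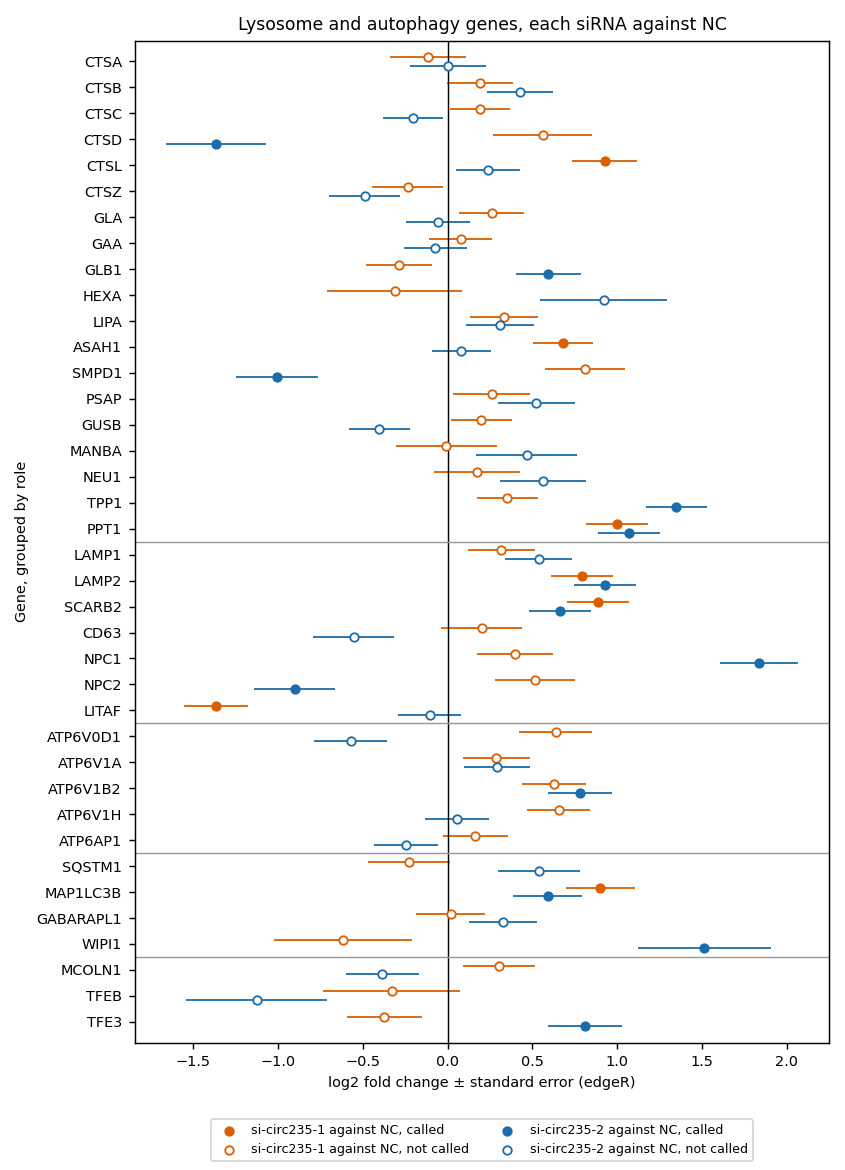
log2 fold change against NC with its standard error (horizontal axis) for the 38 tested genes (vertical axis, grouped by role), in orange for si-circ235-1 and in blue for si-circ235-2, filled where called. The 4 genes filled on the right in both colours are PPT1, LAMP2, SCARB2 and MAP1LC3B, LITAF is filled on the left in orange, and CTSD, SMPD1 and NPC2 are filled on the left in blue.

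The 6 proton pump genes were measured unevenly. ATP6V0C, which encodes the ring subunit, had 3 to 7 counts per library and was not tested, and 862 of its 1498 exon bases are shared with AC093525.2 on the same strand, and the effect of that on its count was not tested. Of the 5 tested, edgeR called none under si-circ235-1 (3 were above 0 at an unadjusted p under 0.05, and DESeq2 called 3 higher) and 1 higher under si-circ235-2, and 2 were lower with si-circ235-2 than with si-circ235-1. Over all tested genes, 5.88%, 31.4% and 39.7% were called in these comparisons. ATP6V0D1 (chr16:67438014-67481237), a membrane-sector subunit, read 434 and 332 CPM in NC, 605 and 585 CPM under si-circ235-1 and 290 and 225 CPM under si-circ235-2. The 3 groups did not overlap, and si-circ235-1 was highest and si-circ235-2 lowest. The contrasts with NC did not pass, at 0.64 ± 0.22 (adjusted p = 0.0999) and -0.57 ± 0.22 (adjusted p = 0.0656), whereas the difference between the siRNAs did (-1.21 ± 0.22, adjusted p = 0.00201).

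ATP6V1B2, a catalytic-sector subunit, rose under si-circ235-2 from 62.0 ± 8.49 to 106 ± 6.96 CPM (log2 fold change 0.78 ± 0.19, adjusted p = 0.0114) and was 0.63 ± 0.19 under si-circ235-1 (adjusted p = 0.0732). The rise was 0.64 without NC replicate 1 (adjusted p = 0.113). ATP6V1H, a regulatory subunit, was lower under si-circ235-2 (66.4 ± 10.3 CPM) than under si-circ235-1 (101 ± 7.61 CPM), by -0.60 ± 0.19 (adjusted p = 0.0263), and the call was lost without si-circ235-1 replicate 1, si-circ235-1 replicate 2 or si-circ235-2 replicate 2 (adjusted p 0.0551 to 0.212), and without TMM factors (-0.27, adjusted p = 0.260). ATP6V1A and ATP6AP1 were not called in any comparison.

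Among the 4 autophagy genes, 1 rose under si-circ235-1 and 2 under si-circ235-2, and none was called lower against NC (none also at an unadjusted p under 0.05 and by DESeq2). Of all tested genes, 5.88% and 31.4% were called under the 2 siRNAs. MAP1LC3B, the LC3 protein that marks autophagosomes, averaged 351 ± 22.04 CPM in NC, 655 ± 68.1 under si-circ235-1 and 529 ± 69.3 under si-circ235-2. Its rises were 0.90 ± 0.20 (adjusted p = 0.0318) and 0.59 ± 0.20 (adjusted p = 0.0467), and leaving out any 1 of the 6 libraries took the second above the threshold (adjusted p 0.0647 to 0.257), as did the fit of 2 groups alone (adjusted p = 0.0627) and the fit with no filter on low counts (adjusted p = 0.0538). Reads of its near-identical copy MAP1LC3B2 may be split with it. WIPI1 (chr17:68420948-68457513), which binds the lipid PI3P where autophagosomes form, read 3.74 and 10.6 CPM in NC, 5.32 and 4.07 CPM under si-circ235-1 and 21.2 and 19.7 CPM under si-circ235-2. The si-circ235-2 libraries lay above the other 4, and the NC libraries differed from each other. WIPI1 rose by 1.51 ± 0.39 against NC (adjusted p = 0.0155) and by 2.13 ± 0.41 against si-circ235-1 (adjusted p = 0.00256), with 0.95 against NC without NC replicate 1 (adjusted p = 0.0999).

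SQSTM1 averaged 563 ± 66.8 CPM in NC, 480.4 ± 149.9 under si-circ235-1 and 818 ± 19.8 under si-circ235-2. Its difference between the siRNAs was called (0.77 ± 0.24, adjusted p = 0.0274) and missed the threshold without si-circ235-1 replicate 2 (0.47, adjusted p = 0.240) or si-circ235-2 replicate 1 (0.74, adjusted p = 0.0618), and its log2 fold change of 0.54 ± 0.24 under si-circ235-2 against NC was not called (adjusted p = 0.112). GABARAPL1, another tag of autophagosomes, was not called in any comparison.

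Of the regulators, edgeR called none of the 3 under si-circ235-1 (none at an unadjusted p under 0.05 and none by DESeq2), and TFE3 rose under si-circ235-2. Beside these stood 5.88% and 31.4% of all tested genes called. TFE3 (chrX:49028726-49043486) read 98.5 and 113 CPM in NC, 99.0 and 64.3 CPM under si-circ235-1 and 193 and 178 CPM under si-circ235-2. The si-circ235-2 libraries were the highest, by 0.81 ± 0.22 against NC (adjusted p = 0.0188) and 1.18 ± 0.22 against si-circ235-1 (adjusted p = 0.00236). The rise against NC was 0.71 without NC replicate 1 (adjusted p = 0.148). TFEB (chr6:41683978-41736259) was low, at 10.8 and 5.68 CPM in NC, 9.02 and 4.13 CPM under si-circ235-1 and 4.13 and 3.39 CPM under si-circ235-2. Both si-circ235-2 libraries of TFEB lay below NC and at or just below the lower si-circ235-1 library, the NC and si-circ235-1 libraries overlapped, and its log2 fold change under si-circ235-2 was -1.13 ± 0.41 (adjusted p = 0.0592), with -0.33 ± 0.40 under si-circ235-1 (adjusted p = 0.662). Per kb of transcript, TFE3 stood at 31.0 CPM and TFEB at 3.17 CPM in NC.

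MCOLN1 (chr19:7522626-7534009) read 54.1 and 53.8 CPM in NC, 76.5 and 56.7 CPM under si-circ235-1 and 46.8 and 35.8 CPM under si-circ235-2. The si-circ235-1 libraries lay above NC and the si-circ235-2 libraries below it. Against NC it was 0.30 ± 0.21 (adjusted p = 0.410) and -0.38 ± 0.21 (adjusted p = 0.195), and the difference between the siRNAs was -0.69 ± 0.21 (adjusted p = 0.0260), which missed the threshold without si-circ235-1 replicate 1 (-0.46, adjusted p = 0.183) or si-circ235-2 replicate 2 (-0.50, adjusted p = 0.167). It was also lost without TMM factors (-0.36, adjusted p = 0.216) and with the replicate block and the length and GC trend removed (-0.43, adjusted p = 0.0753). mRNA levels do not show where TFEB and TFE3 proteins are in the cell, nor how much autophagy takes place.

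A longer list of 141 other lysosome, sorting, autophagy and mTORC1 genes was read in the same way, and 135 of them were tested (all but CTSO, GALC, CLN3, ULK2, GABARAP and TFEC). Under si-circ235-1, 13 rose and 7 fell (14.8%, background 5.88%), and under si-circ235-2, 32 rose and 16 fell (35.6%, background 31.4%). Between the siRNAs 29 were higher and 33 lower under si-circ235-2 (45.9%, background 39.7%). The median log2 fold changes were 0.18, 0.19 and -0.05.

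Under si-circ235-1, the largest change in each group of that list was a rise for RRAGD, a Rag GTPase that places mTORC1 on the lysosome (1.35 ± 0.19, adjusted p = 0.00747), for ATG4A, a protease that processes LC3-like proteins (1.45 ± 0.23, adjusted p = 0.0109), for STX17, the SNARE of autophagosome fusion (1.17 ± 0.28, adjusted p = 0.0365), for OSTM1, the partner of the chloride transporter CLCN7 (1.08 ± 0.26, adjusted p = 0.0367), and for TOLLIP, a ubiquitin-binding adaptor (0.77 ± 0.19, adjusted p = 0.0420). It was a fall for ACP2, an acid phosphatase (-1.26 ± 0.27, adjusted p = 0.0267), for GGA3, a sorting adaptor (-1.17 ± 0.24, adjusted p = 0.0244), for HGS, an ESCRT protein counted here with partners of LITAF (-1.17 ± 0.23, adjusted p = 0.0181), and for ATP6V0E2, a proton pump subunit (-0.999 ± 0.191, adjusted p = 0.0175). All 9 missed the threshold without NC replicate 1 or without si-circ235-1 replicate 2 (adjusted p 0.0588 to 0.260). Without NC replicate 2 it was 8 of the 9, and without si-circ235-1 replicate 1 it was 4 (adjusted p 0.0514 to 0.179). OSTM1 (0.99, adjusted p = 0.0753) and STX17 (1.08, adjusted p = 0.0710) also missed it without TMM factors.

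Under si-circ235-2, IGF2R, the receptor that carries mannose-6-phosphate tagged hydrolases to lysosomes, rose the most in its group. It read 39.8 and 44.9 CPM in NC, 70.6 and 54.9 CPM under si-circ235-1 and 188 and 211 CPM under si-circ235-2, a log2 fold change of 2.24 ± 0.20 (adjusted p = 0.00145). STX17 (1.74 ± 0.28, adjusted p = 0.00264), ITCH, a ubiquitin ligase that binds LITAF (1.47 ± 0.20, adjusted p = 0.00179), WDFY3, a scaffold of aggregate autophagy (1.42 ± 0.22, adjusted p = 0.00264), ATG16L1, part of the LC3 lipidation complex (1.17 ± 0.23, adjusted p = 0.00471) and CLCN7 (0.61 ± 0.21, adjusted p = 0.0490) also rose. DPP7, a dipeptidase (-1.49 ± 0.27, adjusted p = 0.00396), LAMTOR4, a Ragulator subunit (-1.27 ± 0.27, adjusted p = 0.00693) and ATP6V0B, a proton pump ring subunit (-0.85 ± 0.25, adjusted p = 0.0260) fell. DPP7, IGF2R, WDFY3, STX17 and ITCH kept the call under every alternative tried. Without NC replicate 1, CLCN7 (0.61, adjusted p = 0.199), ATP6V0B (-0.54, adjusted p = 0.232), ATG16L1 (0.91, adjusted p = 0.0610) and LAMTOR4 (-0.75, adjusted p = 0.0747) missed it. CLCN7 also missed it without NC replicate 2, si-circ235-2 replicate 1 or si-circ235-2 replicate 2 (adjusted p 0.0899 to 0.147), and ATP6V0B without si-circ235-2 replicate 2 (-0.66, adjusted p = 0.130) and without TMM factors (-0.58, adjusted p = 0.0570). With the length and GC trend removed, LAMTOR4 (-0.51, adjusted p = 0.0704) and ATP6V0B (-0.59, adjusted p = 0.0840) were lost, as they were with the replicate block added (adjusted p = 0.106 for LAMTOR4 and 0.121 for ATP6V0B).

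Between the siRNAs, the group leaders were CDIP1, a protein of the LITAF family (1.74 ± 0.32, adjusted p = 0.00208), GALNS, a sulfatase (1.71 ± 0.20, adjusted p = 0.000489), IGF2R (1.67 ± 0.20, adjusted p = 0.000489), WDFY3 (1.19 ± 0.22, adjusted p = 0.00234) and CLCN7 (1.16 ± 0.21, adjusted p = 0.00220), all higher under si-circ235-2. ATP6V0B (-1.60 ± 0.25, adjusted p = 0.00122), LAMTOR5, a Ragulator subunit (-1.38 ± 0.22, adjusted p = 0.00121), VAMP8, a SNARE of autophagosome fusion (-1.29 ± 0.23, adjusted p = 0.00204), and ATG4C, a protease that processes LC3-like proteins (-1.29 ± 0.38, adjusted p = 0.0220) were lower. ATG4C missed the threshold without si-circ235-1 replicate 2 (-1.06, adjusted p = 0.145) or si-circ235-2 replicate 1 (-0.81, adjusted p = 0.0659). It also missed it in the fit of 2 groups alone (-1.25, adjusted p = 0.0576), with the length and GC trend removed (-0.73, adjusted p = 0.0544) and without TMM factors (-0.93, adjusted p = 0.105).

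Over all called genes, median GC content differed between rises and falls under both siRNAs, and median length did under si-circ235-2. In si-circ235-2 against NC, the median length was 4020 bases for the 10 genes that rose and 2123 bases for the 3 that fell, and over all called genes it was 5364 and 2058.5 bases. The median GC content was 49.9% and 60.2% for the 10 and the 3, and 46.4% and 57.1% over all called genes. Single genes departed from these medians, with NPC2 at 44.3% among the 3 falls and TFE3 at 59.8% among the 10 rises. In si-circ235-1 against NC, the 6 rises had a median GC content of 43.9%, beside 44.8% for all genes that rose and 57.2% for all that fell. LITAF, the 1 fall, had a GC content of 47.1%. The median length there was 3633 bases for all genes that rose and 3602 bases for all that fell. After a smooth trend over length and GC content had been taken out library by library, 6 of the 7 si-circ235-1 calls and 10 of the 13 si-circ235-2 calls passed again, and the part of length and GC content in the values was not tested further.

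With the trend removed, ASAH1 was lost under si-circ235-1 (0.58 ± 0.19, adjusted p = 0.0733), and CTSD (0.92 ± 0.20, adjusted p = 0.0214), SMPD1 (1.13 ± 0.17, adjusted p = 0.00563), ATP6V0D1 (0.96 ± 0.16, adjusted p = 0.00792), ATP6V1H (0.70 ± 0.14, adjusted p = 0.0149), MCOLN1 (0.60 ± 0.15, adjusted p = 0.0351), TPP1 (0.46 ± 0.12, adjusted p = 0.0388) and PSAP (0.49 ± 0.14, adjusted p = 0.0499) were gained, all higher. Under si-circ235-2, SCARB2 (0.17 ± 0.14, adjusted p = 0.391), ATP6V1B2 (0.43 ± 0.21, adjusted p = 0.166) and MAP1LC3B (0.40 ± 0.16, adjusted p = 0.0882) were lost, and SQSTM1 (0.74 ± 0.18, adjusted p = 0.0187), PSAP (0.59 ± 0.14, adjusted p = 0.0172) and ATP6AP1 (-0.49 ± 0.13, adjusted p = 0.0267) were gained. The si-circ235-2 values of CTSD (-0.63 ± 0.20), SMPD1 (-0.57 ± 0.17), PPT1 (0.59 ± 0.12) and TPP1 (0.89 ± 0.12) became smaller by more than 1.5 times and kept their calls. With the replicate block added to the trend removal, CTSD (-0.62, adjusted p = 0.0732) and SMPD1 (-0.57, adjusted p = 0.0608) were lost. LITAF under si-circ235-1 stayed at -1.32 ± 0.12. LAMP2 and PPT1 were higher under both siRNAs with and without the trend.

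**Figure D4:**
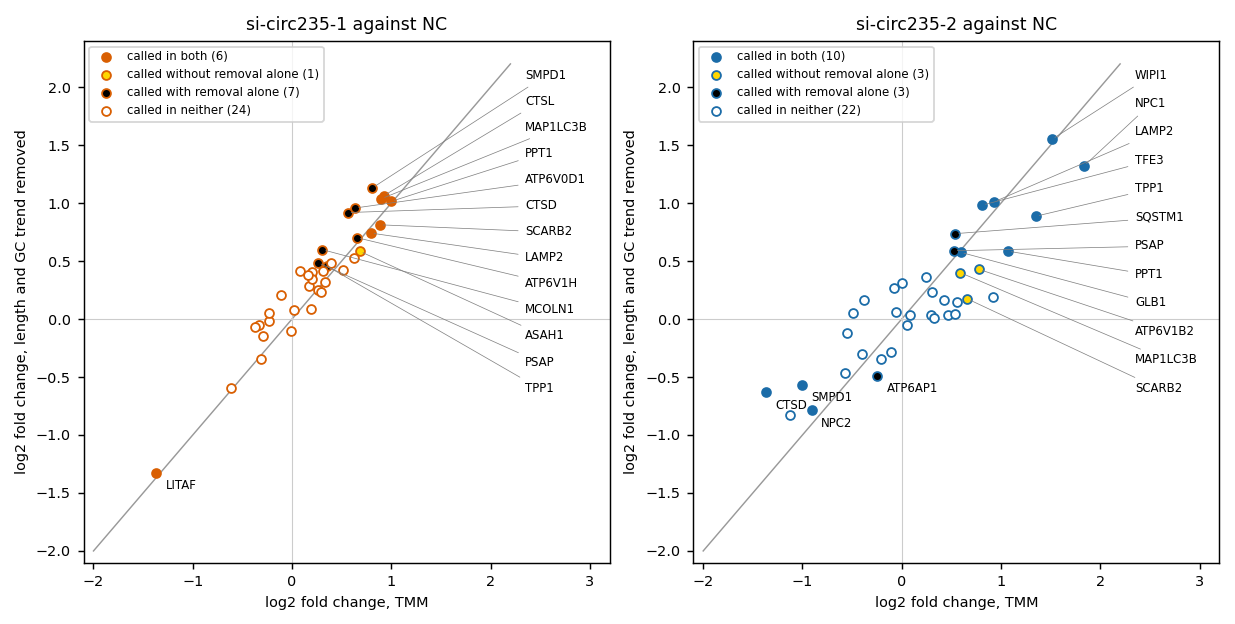
log2 fold change of the 38 tested genes against NC before (horizontal axis) and after (vertical axis) removal of the trend over length and GC content, for si-circ235-1 (left) and si-circ235-2 (right). The diagonal marks equal values, fill marks the calls, and the legend counts them. NPC1, TPP1 and PPT1 lie below the diagonal on the right, and CTSD, SMPD1 and ATP6V0D1 lie above it on the left.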

How the data were processed

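Polyadenylated RNA of T24 cells was captured on oligo dT beads, and the sequencing did not keep the strand. For the 6 libraries in 3 groups the authors deposited raw read counts for each gene, as whole numbers that were not normalized. The submitters' processing notes name FastQC, cutadapt, STAR and hg38, while the counter, annotation and versions were not given in the sources used here. Columns were matched to libraries by name. Symbols, coordinates, transcript lengths and GC content came from GENCODE 29 (GRCh38), in which 58025 of the 58288 identifiers (99.5%) were found. Length and GC content are those of the longest annotated transcript of each gene, which may not be the one expressed in T24.

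The fit used edgeR 4.0.16 under R 4.3.3 (genes kept by filterByExpr, TMM, quasi-likelihood test, 1 mean per group over all 6 libraries, Benjamini-Hochberg adjustment over 14415 genes, threshold 0.05). Standard errors were derived from the log2 fold change and the F statistic. Adjusted p-values throughout are from this fit unless another is named. Libraries of a group were labelled biological replicates, and whether they came from separate cultures is not given, so p-values measure the spread between these libraries, which may be technical. With 2 libraries per group, their number limits the precision more than the depth of 15373992 to 19912893 counts does. In bulk counts, reads of overlapping genes on either strand cannot be told apart. SQSTM1 shares 1582 of its 7654 exon bases with MRNIP, and WIPI1 828 of 3402 with ARSG, both on the opposite strand. NPC1 shares 604 of 10102 with RMC1, also on the opposite strand. HEXA shares 617 of 12611 with AC009690.1, and TPP1 756 of 6544 with AC091564.7, both on the same strand. The effect of these overlaps on the counts was not tested.

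The genes and lists were chosen with earlier results of these data known. Genes called in any comparison, LITAF, MCOLN1, TFEB and TFE3 are named. The 12 genes with the lowest p, which include LITAF and TFE3, are given per library, as are MCOLN1 and TFEB. Of the longer list, the called gene with the largest absolute log2 fold change per group and comparison was named among genes with a mean of at least 5 CPM. In that choice, groups are the sub-lists. IGF2R was given per library after its values were seen. The alternatives tried were a fit of 2 groups alone, DESeq2 1.42.0, library sizes without TMM factors, no filter (genes with any count), the replicate number as a block, removal of a trend over length and GC content (splines with 5 degrees of freedom), the block with that removal, and each library left out. A group left with 1 library is assumed to vary like the others. For the longer list these were run after seeing the data. The fit was tested on simulated data of si-circ235-2 against NC with 200 of 14415 genes changed, and 21.9% of changes of 1 and 86.4% of changes of 2 on the log2 scale were recovered. Beside them stood 5 and 19 false calls among the unchanged genes. In the data 4530 genes (31.4%) were called in that comparison, many more than were changed here, so these shares do not give the recovery in the data. Promoter windows came from RefSeq.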

Additional observations from a re-analysis of the deposited data

How the results depend on the processing

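Of the 38 calls over the 3 comparisons, 12 passed under every alternative. These were TPP1, PPT1 and NPC1 in si-circ235-2 against NC, and CTSD, SMPD1, TPP1, NPC1, NPC2, LITAF, ATP6V0D1, WIPI1 and TFE3 in si-circ235-2 against si-circ235-1. No call changed sign. Calls were lost in 16 cases when NC replicate 1 was left out and 8 for NC replicate 2, 13 and 15 for si-circ235-1 replicates 1 and 2, 6 and 11 for si-circ235-2 replicates 1 and 2, 9 without TMM factors, 5 with the trend over length and GC content removed, 1 under DESeq2, 1 with no filter on low counts and 1 in the fit of 2 groups alone. The causes were not tested.

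The 6 rises under si-circ235-1 became 10 under DESeq2, 12 with the trend removed and 3 without TMM factors, and 0 to 7 with 1 library left out. The 1 fall became 0 to 1 with 1 library left out. The 10 rises under si-circ235-2 became 16 without TMM factors and 3 to 9 with 1 library left out, and the 3 falls became 5 under DESeq2 and 0 to 5 with 1 library left out. Between the siRNAs, the 8 higher calls became 5 to 8 and the 10 lower calls 4 to 10 with 1 library left out, and the 10 became 4 without TMM factors. Leaving out the TMM factors moved the median log2 fold change of all tested genes to -0.11, 0.25 and 0.37 in the 3 comparisons, and that of the 38 genes to 0.18, 0.54 and 0.32. Without TMM factors, all genes split into 179 higher and 529 lower, 3173 and 1294, and 4534 and 1496, against 323 and 524, 2270 and 2260, and 3047 and 2678 with them. Under si-circ235-1, DESeq2 called 714 of all genes higher and 805 lower, and the fit with the trend removed called 1188 and 778. Under si-circ235-2, DESeq2 called 2231 higher and 2382 lower. The calls over all genes thus moved with the setting as well. Leaving out 1 library of a compared group also lowered both the higher and the lower calls over all genes, in each of the 3 comparisons.

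The replicate numbers were checked as a pairing. Deviations of libraries with the same number correlated over genes at -0.09 between NC and si-circ235-1, 0.15 between NC and si-circ235-2 and 0.14 between the siRNAs. With 2 libraries per group, these small values cannot show whether libraries of the same number shared a batch. The replicate block lost 0 of the 38 calls and took the falls under si-circ235-2 from 3 to 6, and the block with the trend removed lost 9. Over all tested genes, the block took the falls under si-circ235-2 from 2260 to 2439.

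Among the genes given library by library, values that were not called changed sign in 10 cases. The other uncalled values were not searched in this way. Some of them also changed sign, such as CTSZ under si-circ235-2, from -0.49 to 0.05 with the trend removed. With 1 library left out, WIPI1 under si-circ235-1 ran from -1.18 to 0.36 (above 0 without NC replicate 2), and TFEB there from -0.99 to 0.20 (above 0 without NC replicate 1, and 0.14 when si-circ235-1 replicate 2 was omitted). Under si-circ235-2, LITAF was 0.14 without TMM factors and ran from -0.249 to 0.0216 with 1 library left out (above 0 only for si-circ235-2 replicate 2), and MCOLN1 was 0.17 with the trend removed and 0.16 with the block as well. PPT1 between the siRNAs was -0.0120 without si-circ235-2 replicate 1, and -0.43 with the trend removed (adjusted p = 0.0185) and -0.43 with the block as well (adjusted p = 0.0353), where it passed the test.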
